A study of Mus musculus with 20 samples.

Results

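Type 2 cytokines, the cytokine Il10 and 4 of their regulators were followed in mouse regulatory T cells (Tregs) that lacked the Rheb or the Rag GTPases. The 8 genes were taken by symbol from the array annotation: the cytokine genes Il4, Il5, Il13 and Il10, the transcription factor genes Gata3 and Maf, and the receptor genes Il4ra and Il1rl1. A probe set with a gene name represented 6 of the 8 among 19505 genes in all, each by 1 probe set. Gata3 and Il1rl1 were not analysed here. Il4 was picked because its 2 knockout effects, in the Rheb and in the Rag experiment, had opposite signs, so its differences between knockout and wild type are given as a description with no test.

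Gene expression was measured in CD4+CD25+ Tregs of C57BL/6 mice on Clariom S arrays, 20 arrays in 8 groups. The cells were sorted after an enrichment step on CD4 beads. The Rheb experiment compared wild type (WT) with a knockout of both Rheb1 and Rheb2 (Rheb KO), each unstimulated or stimulated, with 3 arrays per group. The Rag experiment compared WT with a knockout of both RagA and RagB (Rag KO), each unstimulated or stimulated for 8 h, with 2 arrays per group. The sources used here do not give the stimulus, how long it lasted in the Rheb experiment, the Cre line or promoter, the deleted parts of the genes or the ages of the mice. It is not said either that arrays of a group stand for different mice; p-values then describe the spread between these samples alone, which may be technical.

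Interleukin-4 and interleukin-13 act through a receptor that contains the product of Il4ra and signals through STAT6, and interleukin-5 acts on eosinophils through a receptor of its own. In T cells the genes Il4, Il13 and Il5 lie close together and are opened by GATA3, while NFAT, c-Maf and AP-1 factors act at the Il4 promoter after antigen receptor stimulation. Interleukin-10 is a cytokine that restrains inflammation; Tregs are a source of it and c-Maf is one of its known activators. Rheb and the Rag GTPases act in the switching on of the growth-regulating kinase complex mTORC1, Rheb by activating it and the Rag proteins by bringing it to the lysosome when amino acids are present.

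Of the 8 genes, 6 had a promoter in the RefSeq table (build GRCm38.p6), and Il10 and Maf are named only. The 250 bases before the start are shown for the 3 cytokine genes of the cluster, because the signal of Il4 moved across groups while those of its neighbours Il13 and Il5 passed no test; for Il4, which has 2 starts in the table, the outer one was used. They lie at chr11:53618666-53618915 on the minus strand for Il4, chr11:53634703-53634952 on the minus strand for Il13 and chr11:53720544-53720793 on the plus strand for Il5. Capitals mark GGAAA, the core letters of NFAT sites, and TGCTGA, one side of a MAF recognition element, on either strand (TTTCC and TCAGCA on the other).
Il4: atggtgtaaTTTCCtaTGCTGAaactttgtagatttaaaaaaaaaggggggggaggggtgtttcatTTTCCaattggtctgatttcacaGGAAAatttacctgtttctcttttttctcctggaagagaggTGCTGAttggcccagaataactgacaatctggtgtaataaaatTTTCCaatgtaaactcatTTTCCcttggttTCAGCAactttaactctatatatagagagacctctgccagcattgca
Il13: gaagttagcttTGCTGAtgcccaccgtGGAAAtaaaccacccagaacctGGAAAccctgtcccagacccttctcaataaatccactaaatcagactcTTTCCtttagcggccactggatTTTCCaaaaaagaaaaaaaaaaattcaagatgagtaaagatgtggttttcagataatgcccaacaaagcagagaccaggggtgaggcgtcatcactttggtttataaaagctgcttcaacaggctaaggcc
Il5: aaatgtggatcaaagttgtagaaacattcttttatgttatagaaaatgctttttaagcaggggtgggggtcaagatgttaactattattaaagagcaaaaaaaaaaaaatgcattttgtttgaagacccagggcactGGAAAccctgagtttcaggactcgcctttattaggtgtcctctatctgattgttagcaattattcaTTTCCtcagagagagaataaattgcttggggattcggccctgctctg
The Il4 window held 5 matches to GGAAA, Il13 4 and Il5 2, against 1 or more in 55.6% and 3 or more in 6.39% of 32851 promoters of the same length. TGCTGA was found 3 times in Il4, once in Il13 and not in Il5; 16.1% of promoters held it and 0.146% held it 3 or more times. The letters TTC followed, after 4 bases of any kind, by GAA, the spacing of STAT6 sites, were found 1 time in Il4, overlapping one GGAAA, and in neither Il13 nor Il5, against 5.85% of promoters. The Il4ra window held 1 GGAAA and neither other motif. A match is a run of letters, not a shown binding site.

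All values are log2 signals from the deposited table, so a difference of 1 is a doubling. Each array also carries 5222 negative control probe sets, which show the signal without a target; their median was 6.86 to 7.16 on Rheb and 6.11 to 6.62 on Rag arrays, and their 95th percentile 9.95 to 10.2 and 9.43 to 9.92. Over genes, array medians ran from 7.67 to 7.77 on Rheb and from 7.18 to 7.55 on Rag arrays, where unstimulated WT array 2 (7.18) and unstimulated KO array 1 (7.29) were lowest. Titles and source names gave the groups, although for 6 Rheb arrays (all of unstimulated KO and of stimulated WT) another field of the labels states the reverse treatment. Rheb was lower in Rheb KO (-0.88 and -0.93 log2, adjusted p = 0.0413 and 0.0278, unstimulated and stimulated). In Rag KO minus WT, Rheb read -0.75 unstimulated, without overlap, and -0.04 stimulated, and passed in neither (adjusted p = 0.681 and 0.993). In the unstimulated state the Rag effect on Rheb differed from the Rheb effect by only 0.13 ± 0.32 (adjusted p = 0.968). Rraga, which encodes RagA, was lower in Rag KO (-2.43 and -2.18, adjusted p = 0.00266 and 0.00448). Rhebl1 (Rheb2) and Rragb (RagB) did not pass between their own KO and WT (adjusted p between 0.119 and 0.973). Rhebl1 lay above only 17 to 33.2% of the negative controls on Rheb arrays, and Rragb above 57.2 to 73.3% on Rag arrays. In Rheb KO minus WT, Rhebl1 read -0.38 ± 0.19 unstimulated and -0.76 ± 0.19 stimulated. Its arrays overlapped in the first and not in the second, as for 15.6% of all genes. At levels this near the negative controls the size of a loss of either gene is uncertain. The Rheb calls ended in 12 and 7 of 20 alternatives and the Rraga calls in 3 and 2 of 18; where the probes lie relative to the deleted parts is not given. The list of 14 Treg and CD4 T cell markers also held the CD8 genes Cd8a and Cd8b1, and 11 of the 14 were measured. Of these 11, 7 or 8 stood above the 95th percentile of the negative controls on each array, among them Cd3e, Cd4, Ctla4, Ikzf2 and Tnfrsf18. Il2ra, which encodes the CD25 used in the sort, lay within the negative control range (above 46.1 to 91.2% of them), and Foxp3 was not analysed here.

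Of the 6 genes Il4 had the widest range of signals over the 20 arrays: stimulation raised it in Rheb WT, Rheb KO and Rag KO, and it lay lower in Rheb KO and higher in Rag KO than in the WT arrays beside them. Il10 was lower in unstimulated Rheb KO, and Il4ra rose with stimulation in Rheb WT and Rheb KO. Il5, Il13 and Maf passed the test in none of the 12 comparisons. A gene passed, or was called, when limma's adjusted p over all genes (Benjamini-Hochberg, two-sided) was below 0.05. In bulk samples, fewer cells of a type and less RNA per cell cannot be told apart.

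Counted over the 5 measured genes other than Il4, 1 was called between Rheb KO and WT in the unstimulated state (Il10, lower; 0.508% of all genes were called, and 10.2% had an unadjusted p below 0.05), and 0 in the stimulated state (0.543% of all genes; Il10 and Il4ra had an unadjusted p below 0.05, as did 9.25% of genes). Counted over all 6, 2 were called in the response to stimulation of Rheb WT (9.37% of all genes) and 2 in that of Rheb KO (9.75%), Il4 and Il4ra each time. Maf in Rheb WT and Il13 in Rheb KO had an unadjusted p below 0.05 only, against 21.1% of genes in each response. In the Rag experiment 0 of 5 were called between KO and WT in either state (0.113% of genes unstimulated, 0.103% stimulated), and 0 of the 5 had an unadjusted p below 0.05, against 6.66 and 5.07% of genes. In the responses of the Rag experiment, 0 of 6 were called in WT (1% of genes; Il4 and Il10 had an unadjusted p below 0.05, against 15%) and 1, Il4, in KO (1.32%; Il10, Maf and Il4ra below the unadjusted limit as well, against 14.4%). In the difference between the KO and the WT response 0 of 5 and 0% of all genes were called in each experiment. Il4ra in the Rheb experiment was below the unadjusted limit, against 6.19% of genes there and 6.16% in the Rag experiment. The 0 calls came from limma, the only tool run. The stimulation tests of Il4 use the arrays of the knockout effects it was picked on, so they are not independent of that choice.

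**Figure D1:**
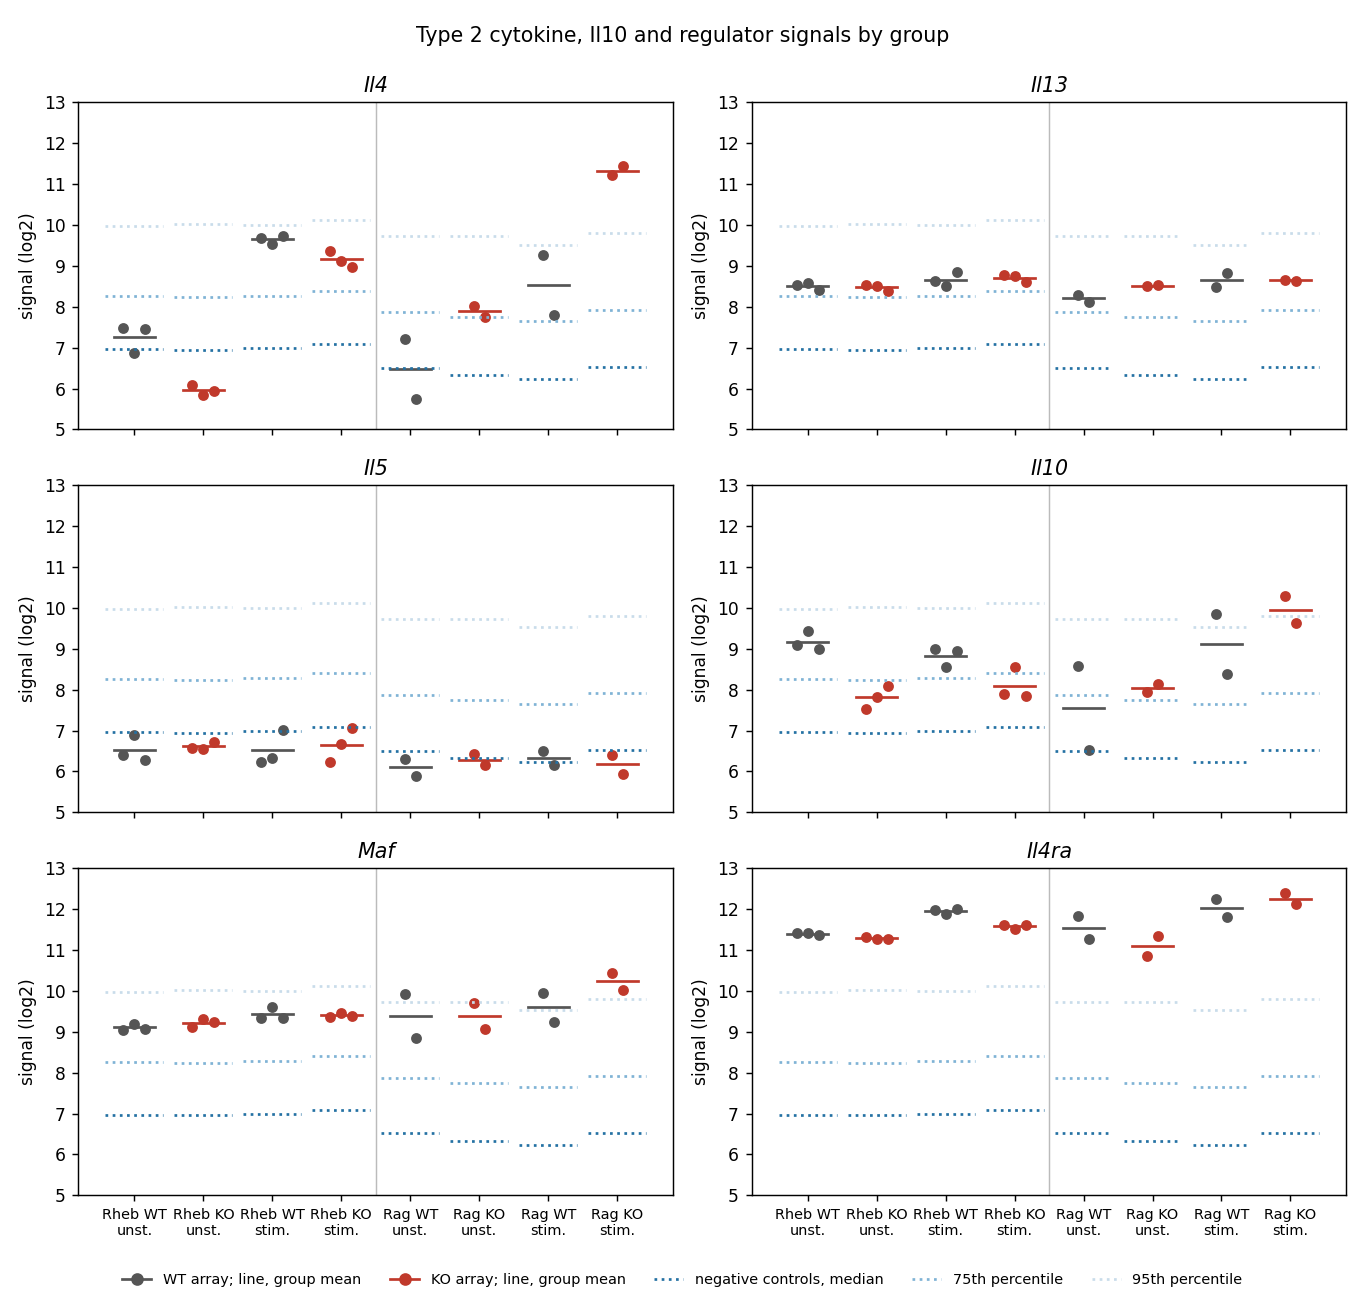
Log2 signal (y axis) of Il4, Il13, Il5, Il10, Maf and Il4ra in the 8 groups (x axis), with 1 point per array, WT in grey and KO in red, and a line at each group mean; the dotted lines are group means of the median, 75th and 95th percentiles of the negative controls. Il4 runs from 5.75 to 11.45, both stimulated Rag KO arrays stand above every other array, Il5 stays between 5.90 and 7.05 near the negative control median, and Il4ra is above the 95th percentile on all 20 arrays.

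Il4, the cytokine that drives the type 2 helper fate, had signals of 7.47, 6.88 and 7.46 in unstimulated Rheb WT and 6.08, 5.85 and 5.94 in unstimulated Rheb KO. In stimulated Rheb WT they were 9.69, 9.53 and 9.74, and in stimulated Rheb KO 9.38, 9.12 and 8.98. No pair of these 4 groups overlapped: stimulated WT was highest, followed by stimulated KO, unstimulated WT and unstimulated KO. Unstimulated KO arrays lay below the negative control median (above 30.1 to 35.8% of the controls) and unstimulated WT arrays close to it (49 to 59.9%), so the size of the difference between them is uncertain. Stimulated arrays lay higher, above 92.2 to 93.1% of the controls in WT and 83.3 to 89% in KO, still under the 95th percentile.

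Among Rag arrays Il4 read 7.22 and 5.75 in unstimulated WT and 8.03 and 7.75 in unstimulated Rag KO. After stimulation it read 9.26 and 7.79 in WT and 11.21 and 11.45 in KO. In each state both KO arrays were above both WT arrays, and stimulated WT overlapped unstimulated KO. The stimulated KO arrays stood above 98.9 to 99.2% of the negative controls and were the only 2 of the 20 arrays above their 95th percentile. Unstimulated WT lay at 34.1 and 64.8% of the controls and stimulated WT at 78.4 and 92.8%.

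As a description of the contrast it was picked on, Il4 in Rheb KO minus WT was -1.31 ± 0.16 log2 (SE, 95% interval -1.65 to -0.98) unstimulated and -0.49 ± 0.16 (-0.83 to -0.15) stimulated. In Rag KO minus WT it was 1.405 ± 0.47 (0.40 to 2.41), unstimulated and 2.81 ± 0.47 (1.80 to 3.81), 7-fold, stimulated. The 4 differences were without overlap between KO and WT; arrays of the 2 genotypes did not overlap for 14.7, 15.6, 28.4 and 44.3% of all genes in these comparisons, in the same order. The Rag effect minus the Rheb effect was 2.72 ± 0.48 (1.72 to 3.72) unstimulated and 3.30 ± 0.48 (2.30 to 4.30) stimulated. The intervals take no account of how Il4 was picked and are not to be read as tests. The Rag values rest on a wide gap between WT arrays, since WT array 1 exceeded WT array 2 by 1.47 log2 in each state. Without unstimulated WT array 2 the Rag effect was 0.67 and without unstimulated WT array 1 it was 2.14; without stimulated WT array 2 it was 2.07 and without stimulated WT array 1 it was 3.54. Leaving out both unstimulated arrays of lowest median gave 0.53.

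No unstimulated Il4 array stood above 95% of its negative controls, and the unstimulated Rheb KO arrays lay below their median, so the sizes of the responses, and of differences between them, are uncertain. Stimulation raised Il4 by 2.38 ± 0.16 log2 (SE, adjusted p = 2.35e-06), 5.21-fold, in Rheb WT and by 3.20 ± 0.16 (adjusted p = 9.58e-08) in Rheb KO, and each call was kept in all 20 alternatives. In Rag KO it rose by 3.44 ± 0.47 (adjusted p = 0.00331), 10.9-fold, a call kept in all 18 alternatives. In Rag WT the difference was 2.04 ± 0.47, 4.12-fold, and it did not pass (adjusted p = 0.0615). That adjusted p ranged from 2.68e-06 to 0.484 over 18 alternatives, 9 of which called it, and the value from 1.305 without unstimulated WT array 2 to 2.78 without unstimulated WT array 1. By number, Rag WT arrays 1 read 7.22 unstimulated and 9.26 stimulated, and Rag WT arrays 2 read 5.75 and 7.79. The alternative with a block for the replicate number called the Rag WT response, but whether the numbers pair the arrays is not given. Stimulated and unstimulated arrays of Il4 did not overlap in any of the 4 responses. Neither did those of 24.4% of all genes in Rheb WT, 27.8% in Rheb KO, 47.5% in Rag WT and 45.7% in Rag KO. The median over all genes of the Rag WT response was 0.208 log2, where those of all other comparisons lay between -0.08 and 0.09, and the Il4 difference in Rag WT is to be read relative to it. The KO response minus the WT response of Il4, given as a description, was 0.82 ± 0.22 (0.34 to 1.30) for Rheb and 1.40 ± 0.66 (-0.02 to 2.82) for Rag. Over all genes 0 passed limma's test of this difference in either experiment, 1207 and 1202 having an unadjusted p below 0.05 in the Rheb and the Rag experiment.

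**Figure D2:**
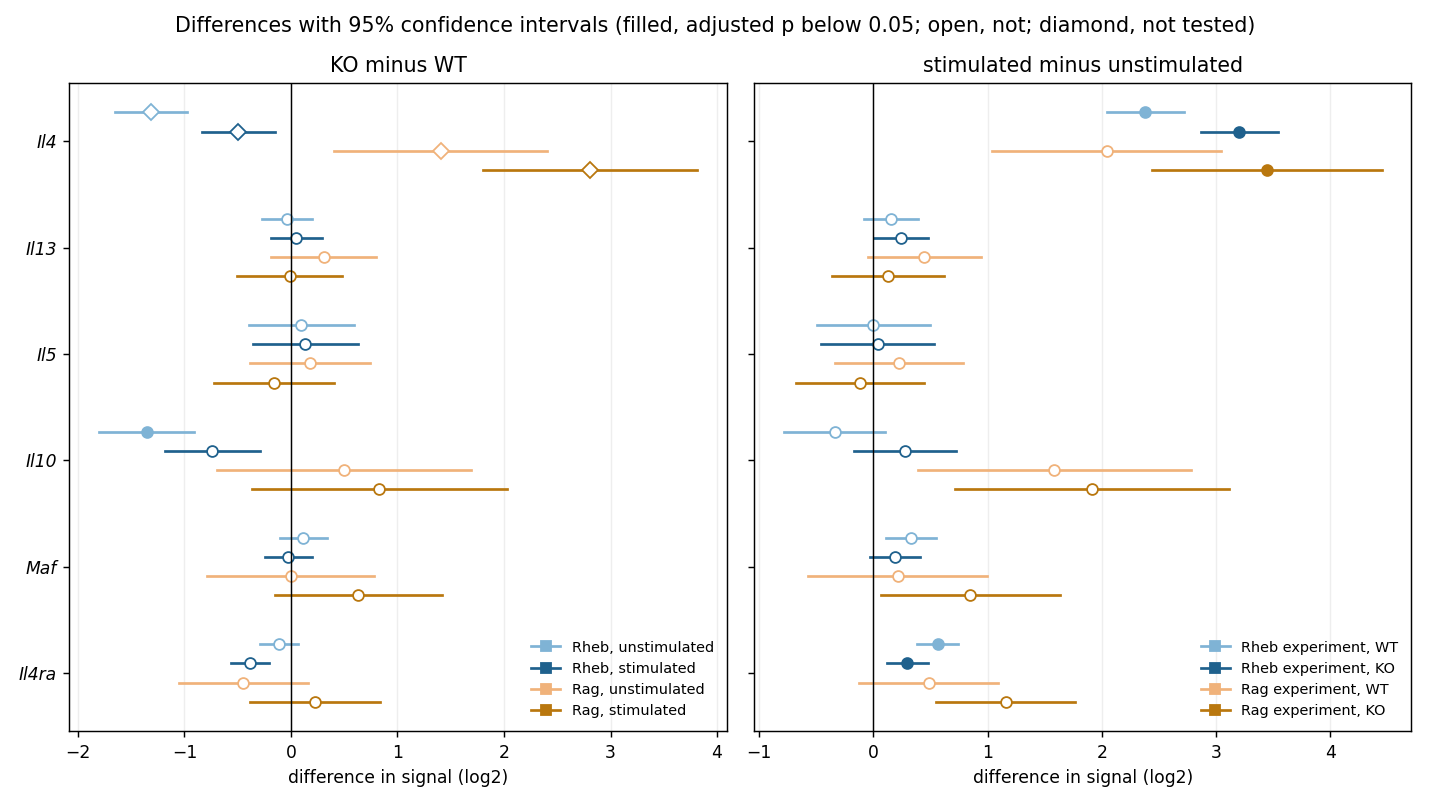
Difference in log2 signal (x axis) for the 6 genes, KO minus WT on the left and stimulated minus unstimulated on the right, with 95% confidence intervals; Rheb in blue, Rag in orange, filled where the adjusted p was below 0.05, open where it was not, and a diamond where no test was made. Il4 lies below 0 in both Rheb knockout contrasts and above 0 in both Rag knockout contrasts, and its 4 responses lie between 2.04 and 3.44; the other filled points are Il10 in unstimulated Rheb KO and Il4ra in the 2 Rheb responses. The intervals of the Il4 knockout contrasts take no account of how Il4 was picked.

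Mast cells and basophils also make interleukin-4, and their markers were read beside it. All 11 were measured, none was called in any comparison, and 4 to 8 of them lay below the negative control median on each array. The array means of the list lay between 6.25 and 6.97 in unstimulated and between 6.93 and 6.94 in stimulated Rag WT, against 6.84 to 7.18 and 6.77 to 7.17 in Rag KO. In Rag KO minus WT the 11 had a median of 0.28 log2 unstimulated (10 above 0) and -0.0996 stimulated (4 above 0). Medians over all genes were 0.0305 and -0.0549. Of the defining markers, Fcer1a lay above at most 49.1% of the negative controls on any array, Ms4a2 above at most 40.6%, Cpa3 above at most 63.9% and Mcpt8 above at most 84.8%. Kit was the only marker to exceed the 95th percentile on an array; its group means were 9.77 and 10.54 in unstimulated Rheb WT and KO, 9.85 in unstimulated Rag WT, 11.56 in unstimulated Rag KO, 10.79 in stimulated Rag WT and 11.71 in stimulated Rag KO. The 4 measured eosinophil markers were never above the 95th percentile. Of 7 markers of conventional CD4 T cells 5 were measured, and none was called between KO and WT in either experiment. In Rag KO minus WT their median was -0.258 log2 unstimulated (2 above 0) and 0.274 stimulated (4 above 0). In Rheb KO minus WT it was 0.004 and 0.09. Array means of this list lay between 9.33 and 9.42 in stimulated Rag KO, against 8.79 to 9.23 in stimulated Rag WT. Dendritic cell markers, 10 of which were measured, had a median of 0.344 log2 in unstimulated and -0.035 in stimulated Rag KO minus WT (9 and 4 of 10 above 0). Array means of the list lay between 7.19 and 7.37 in unstimulated and between 7.20 and 7.39 in stimulated KO, against 6.53 to 6.92 and 6.99 to 6.998 in WT. Among them the MHC class II genes H2-Aa (8.70 to 10.11 unstimulated, 8.91 to 10.37 stimulated, from WT to KO) and H2-Eb1 (7.62 to 9.05 and 7.75 to 9.19) had no overlap but did not pass (adjusted p between 0.107 and 0.429). Of all genes, 28.4% had no overlap in the unstimulated and 44.3% in the stimulated comparison. The part of these cells in the Il4 differences was not tested.

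In the Rheb responses of Il4, markers of other cells were lower in the stimulated arrays. Of the macrophage and monocyte markers 6 of 10 fell in each genotype (medians -0.481 in WT and -0.613 in KO; array means from 7.37 to 7.41 down to 6.81 to 7.07 in WT, from 7.80 to 7.83 down to 6.79 to 6.86 in KO). Of the dendritic cell markers 4 of 10 fell in each (medians -0.434 and -0.393), and of 9 NK and innate lymphoid cell markers 3 in WT and 2 in KO (medians -0.376 and -0.348). Eomes, called in WT, and Klrg1, called in both, are also in the lists of helper fate factors and of Treg receptors below. Their falls are counted in both places and do not mark other cells alone. In the Rag responses no marker of these lists was called. Their part in the responses was not tested.

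Il13, which shares the Il4ra receptor chain with Il4 and lies beside it in the genome, read 8.53, 8.59 and 8.40 in unstimulated Rheb WT and 8.54, 8.50 and 8.38 in unstimulated Rheb KO. It read 8.62, 8.51 and 8.86 in stimulated Rheb WT and 8.78, 8.76 and 8.60 in stimulated Rheb KO. In the Rag experiment it read 8.30 and 8.12 in unstimulated WT, 8.50 and 8.53 in unstimulated KO, 8.49 and 8.82 in stimulated WT and 8.65 and 8.64 in stimulated KO. The arrays stayed within the upper part of the negative controls (above 76.1 to 90.9% of them) and none exceeded the 95th percentile. Differences between KO and WT were -0.04 ± 0.11 and 0.05 ± 0.11 log2 for Rheb and 0.31 ± 0.23 and -0.01 ± 0.23 for Rag, unstimulated and stimulated (adjusted p between 0.853 and 0.996). Responses to stimulation were 0.15 ± 0.11 in Rheb WT, 0.24 ± 0.11 in Rheb KO, 0.45 ± 0.23 in Rag WT and 0.13 ± 0.23 in Rag KO (adjusted p between 0.228 and 0.943).

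Il5, whose product matures and recruits eosinophils, read between 5.90 and 7.05 over the 20 arrays, and 16 of them lay below their own negative control median. In stimulated Rag KO, where Il4 was highest, it read 6.39 and 5.95, against 6.50 and 6.16 in stimulated Rag WT. The largest difference of Il5 in any of the 8 knockout and stimulation comparisons was 0.22 ± 0.26 log2, and adjusted p lay between 0.660 and 0.999. The 95% intervals of these 8 differences lay between -0.73 and 0.79, on signals near the negative control median.

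Il4, Il13 and Il5 lie on chromosome 11 in the order Il4, Il13, Rad50, Il5, and 16 further genes around them were measured. The 2 cytokine genes at the far end, Csf2 and Il3, which encode growth factors of myeloid cells and of mast cells, were called in some comparisons, and of the other 14 genes 1, Irf1, was called once. Il3 had group means of 4.96 in stimulated Rheb WT and 7.90 in stimulated Rheb KO, a difference of 2.94 ± 0.35 log2 (adjusted p = 0.0034) from a level under the negative control median. Its sign was opposite to that of Il4 in the same arrays (-0.49). Csf2 was higher there too, by 0.73 ± 0.12 (adjusted p = 0.0162; the call ended in 6 of 20 alternatives, among them those without stimulated WT array 1, 0.68, or 3, 0.74, or stimulated KO array 1, 0.76, or 2, 0.62). With stimulation Il3 and Csf2 rose in Rheb KO (3.47 ± 0.35 and 1.23 ± 0.12, adjusted p = 3.67e-05 and 1.91e-05) as well as in Rag KO (1.635 ± 0.32 for Il3 and 1.36 ± 0.26 for Csf2, adjusted p = 0.0218 and 0.0203). There the Il3 call ended in 5 of 17 alternatives, among them those without stimulated KO array 2 (1.08) or either unstimulated WT array (1.635 each). The Csf2 call ended in 4 of 18, among them those without stimulated KO array 1 (1.63) or 2 (1.096). In Rheb WT and in Rag WT neither gene was called. Irf1, an interferon-responsive factor gene next to Il5, fell by 0.45 ± 0.09 with stimulation in Rheb WT (adjusted p = 0.00564). Over the 16 genes, 2 were called in stimulated Rheb KO against WT and 0 in the other 3 knockout comparisons. Over all genes 0.543% were called in the first, and 0.508, 0.113 and 0.103% in unstimulated Rheb KO, unstimulated Rag KO and stimulated Rag KO.

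**Figure D3:**
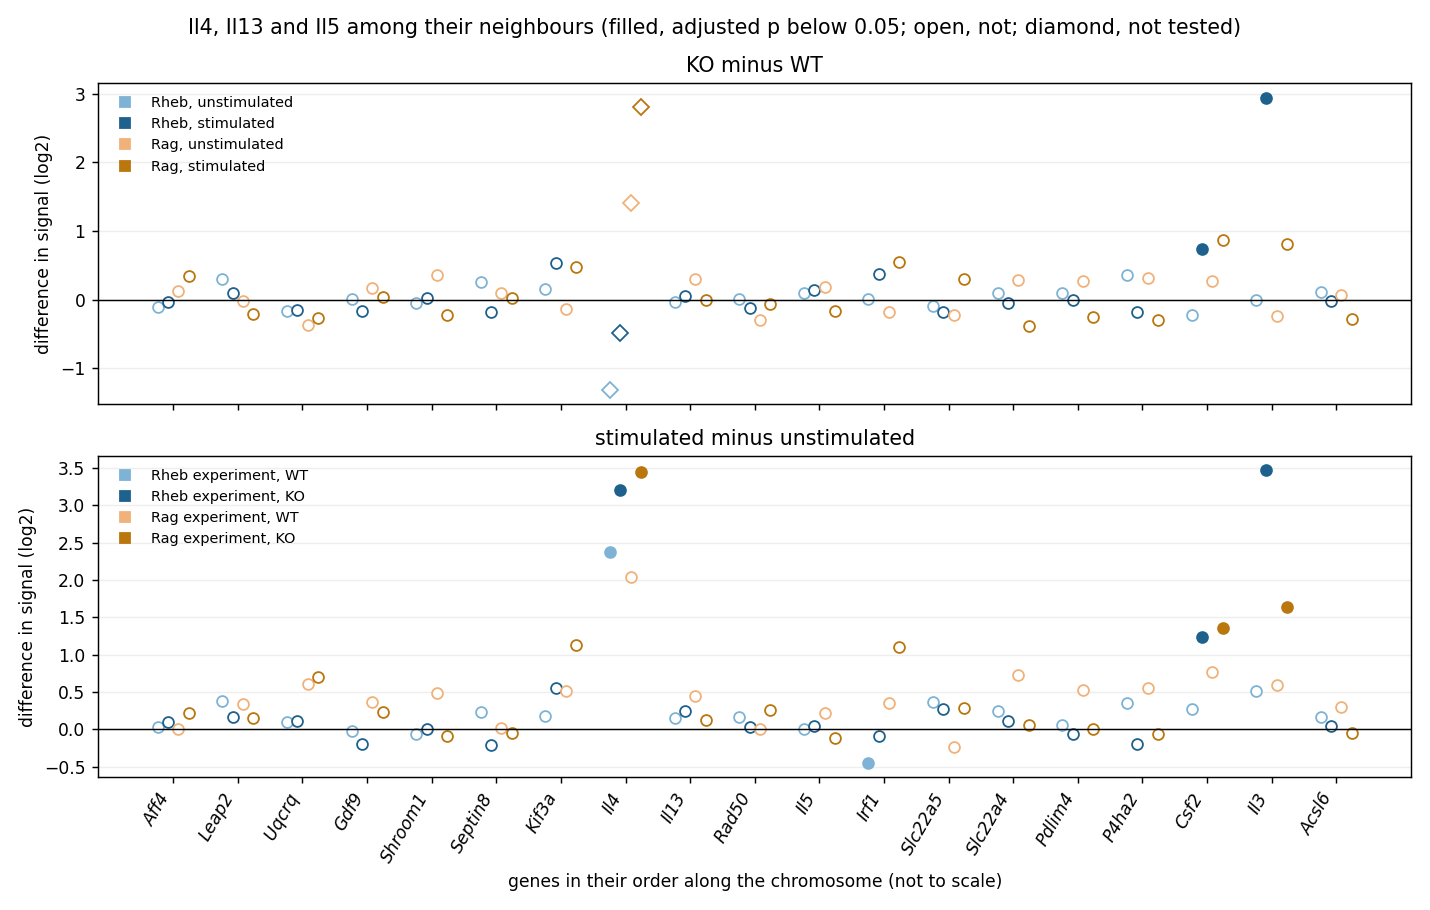
Differences in log2 signal (y axis) of Il4, Il13, Il5 and their measured neighbours in their order along the chromosome (x axis, not to scale), KO minus WT above and stimulated minus unstimulated below; Rheb in blue and Rag in orange, filled where the adjusted p was below 0.05, open where not, diamonds for Il4 contrasts that were not tested. Il4 and Il3 reach the highest responses, while Il13, Rad50 and Il5, which lie between them, stay between -0.30 and 0.45 in all 8 comparisons.

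Il10, the anti-inflammatory cytokine of the set, read 9.09, 9.43 and 9.0003 in unstimulated Rheb WT and 7.53, 7.83 and 8.09 in unstimulated Rheb KO. In stimulated Rheb WT it read 9.01, 8.55 and 8.95, and in stimulated Rheb KO 7.89, 8.57 and 7.84. Unstimulated WT and KO arrays did not overlap, as for 14.7% of all genes, whereas stimulated KO array 2 reached the range of stimulated WT. All these values lay between 63.1 and 90.8% of the negative controls, above their median and under their 95th percentile.

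In unstimulated Rheb KO, Il10 was lower than in WT by 2.56-fold, -1.36 ± 0.21 log2 (SE, 95% interval -1.80 to -0.91; adjusted p = 0.0113). The call ended without unstimulated KO array 1 (-1.21, adjusted p = 0.0553) and with all 20 arrays in the fit (adjusted p = 0.291); over 20 alternatives the adjusted p ranged from 0.0022 to 0.291. In the stimulated state the difference was -0.74 ± 0.21 (-1.18 to -0.29) and did not pass (adjusted p = 0.198). The responses to stimulation did not pass either, at -0.34 ± 0.21 in WT and 0.28 ± 0.21 in KO (adjusted p = 0.400 and 0.521), and nor did the difference between them, 0.62 ± 0.29 (adjusted p = 0.821).

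Macrophage, monocyte and dendritic cell markers moved with the same comparison, in which Il4 lay lower as well. Of the 10 macrophage and monocyte markers measured, all 10 were above 0 in unstimulated Rheb KO minus WT, with a median of 0.395 log2. Array means of the list lay between 7.80 and 7.83 in KO and between 7.37 and 7.41 in WT. No marker stood above 95% of the negative controls on any array. The complement gene C1qa (1.14, adjusted p = 0.0228) and Ms4a7 (0.84, adjusted p = 0.0424) were called, and among 10 dendritic cell markers the MHC class II genes H2-Eb1 (0.83, adjusted p = 0.0192) and H2-Ab1 (0.73, adjusted p = 0.0479). Of 9 NK and innate lymphoid cell markers Fcgr3 was called (0.84, adjusted p = 0.0257). In stimulated Rheb KO minus WT, H2-Eb1 was the only one of these called (0.78, adjusted p = 0.0233), and the macrophage and monocyte list had a median of -0.08. The part of these cells in the Il10 and Il4 differences was not tested.

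Among Rag arrays Il10 read 8.57 and 6.52 in unstimulated WT and 7.94 and 8.14 in unstimulated KO. After stimulation it read 9.86 and 8.39 in WT and 10.28 and 9.63 in KO. The genotypes overlapped in both states, and both stimulated KO arrays lay above both unstimulated KO arrays. The difference between KO and WT was 0.50 ± 0.55 log2 (-0.70 to 1.69, adjusted p = 0.908) unstimulated and 0.83 ± 0.55 (-0.37 to 2.03, adjusted p = 0.947) stimulated. WT array 1 exceeded WT array 2 by 2.055 unstimulated and 1.47 stimulated. Without unstimulated WT array 2 the first difference became -0.53, without unstimulated WT array 1 it was 1.53, and without stimulated WT array 2 the second fell to 0.10. Responses were 1.58 ± 0.55 in WT (adjusted p = 0.221) and 1.91 ± 0.55 in KO (adjusted p = 0.116), neither called; arrays did not overlap in KO, as for 45.7% of all genes.

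The difference between the Rag and the Rheb effect on Il10 was 1.855 ± 0.60 log2 (0.62 to 3.09) unstimulated and 1.57 ± 0.60 (0.33 to 2.80) stimulated, and it passed in neither state (adjusted p = 0.465 and 0.576; unadjusted p = 0.00517 and 0.0154). Over the 5 genes other than Il4, 0 were called in these 2 comparisons, against 0.0564 and 0.19% of all genes. Il10 in both and Il4ra in the stimulated state were below the unadjusted limit, against 7.31 and 7.06%. The only alternative that called it left out unstimulated Rag WT array 1 (2.88, adjusted p = 0.0139).

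**Figure D4:**
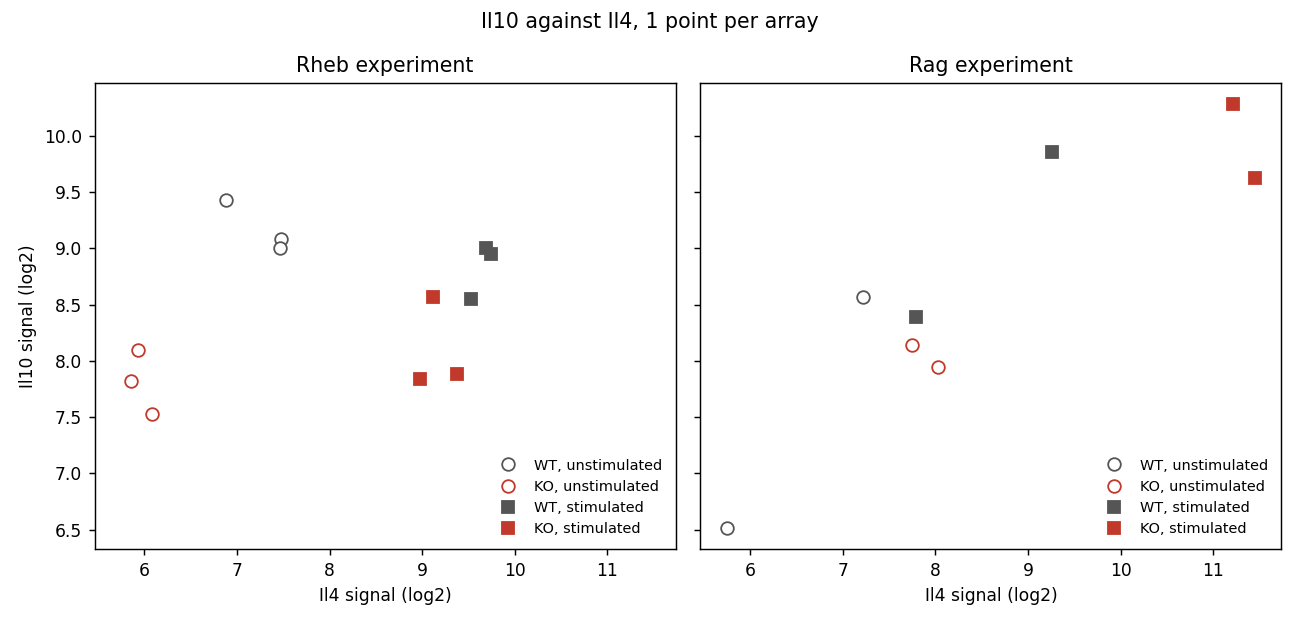
Il10 log2 signal (y axis) against Il4 log2 signal (x axis), 1 point per array, the Rheb experiment on the left and the Rag experiment on the right; grey WT, red KO, open circles unstimulated, filled squares stimulated. In the Rheb experiment the stimulated arrays lie to the right, at 8.98 to 9.74 in Il4, with Il10 between 7.84 and 9.01, whereas in the Rag experiment both signals are lowest in unstimulated WT array 2 (5.75 and 6.52) and highest in a stimulated KO array (11.45 in Il4, 10.28 in Il10); stimulated WT array 1 reaches 9.86 in Il10.

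With the mean of each experiment taken off, Il4 and Il10 had a correlation across arrays of 0.635 over 20 arrays, 0.263 over the 12 of the Rheb and 0.896 over the 8 of the Rag experiment. Arrays of 1 experiment share their groups and their processing, so these values are a description. Il4 and Il4ra had 0.887 in the Rheb and 0.695 in the Rag experiment, and Il10 and Maf -0.174 and 0.871.

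Maf, the transcription factor gene whose product binds the Il4 promoter and activates Il10, read 9.05, 9.20 and 9.07 in unstimulated Rheb WT and 9.13, 9.30 and 9.23 in unstimulated Rheb KO. It read 9.33, 9.61 and 9.35 in stimulated Rheb WT and 9.36, 9.47 and 9.39 in stimulated Rheb KO. In the Rag experiment it read 9.93 and 8.85 in unstimulated WT, 9.71 and 9.06 in unstimulated KO, 9.95 and 9.25 in stimulated WT and 10.43 and 10.03 in stimulated KO. Both stimulated Rag KO arrays were above all others, and 5 of the 20 arrays, all of the Rag experiment, stood above 95% of the negative controls. Stimulated minus unstimulated was 0.33 ± 0.10 log2 in Rheb WT (adjusted p = 0.0625) and 0.19 ± 0.10 in Rheb KO (adjusted p = 0.330), without overlap in either. Arrays of 24.4 and 27.8% of all genes did not overlap in these responses. Stimulated Rag KO minus WT was 0.63 ± 0.36 (adjusted p = 0.947), without overlap, which 44.3% of genes shared. In Rheb KO minus WT, Maf differed by 0.11 ± 0.10 unstimulated and -0.02 ± 0.10 stimulated (adjusted p = 0.778 and 0.983), in the arrays where Il10 lay at -1.36 and -0.74.

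Il4ra, the receptor chain through which both Il4 and Il13 signal, was the brightest of these probe sets relative to the negative controls, above 98.7 to 99.5% of them on all 20 arrays. In the Rheb experiment it read 11.42, 11.41 and 11.36 in unstimulated WT and 11.32, 11.28 and 11.27 in unstimulated KO. After stimulation it read 11.98, 11.89 and 12.01 in WT and 11.61, 11.52 and 11.62 in KO. These 4 groups did not overlap, stimulated WT being highest and unstimulated KO lowest. Over all genes, KO and WT arrays did not overlap for 14.7% unstimulated and 15.6% stimulated. Stimulated and unstimulated arrays did not overlap for 24.4% in WT and 27.8% in KO. Stimulation raised Il4ra by 0.56 ± 0.08 log2, 1.48-fold, in WT (adjusted p = 0.000755) and by 0.30 ± 0.08, 1.23-fold, in KO (adjusted p = 0.0379). The call in KO ended in 12 of 20 alternatives, among them those without any 1 of the 6 KO arrays or without either array 1 of WT, the one in WT in 0 of 20. In stimulated arrays KO minus WT was -0.38 ± 0.08 (-0.56 to -0.20), which did not pass (adjusted p = 0.0730); the filter on dim genes (adjusted p = 0.0287) and a trended variance prior (adjusted p = 0.00144) called it. The difference between the 2 responses was -0.27 ± 0.12 (adjusted p = 0.802).

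Among Rag arrays Il4ra read 11.83 and 11.26 in unstimulated WT, 10.85 and 11.35 in unstimulated KO, 12.25 and 11.81 in stimulated WT and 12.40 and 12.12 in stimulated KO. KO and WT overlapped in both states, with differences of -0.45 ± 0.28 and 0.23 ± 0.28 log2 (adjusted p = 0.826 and 0.954). The response was 0.48 ± 0.28 in WT (adjusted p = 0.403) and 1.16 ± 0.28 in KO (adjusted p = 0.0652), the latter without overlap, as for 45.7% of all genes.

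Other genes of the pathways came from 9 lists with 106 names, 95 of them measured. In the knockout comparisons few were called: 1 in unstimulated Rheb KO (1.05% of the 95, against 0.508% of all genes), 4 in stimulated Rheb KO (4.21%, against 0.543%) and 0 in Rag KO in either state. The 1 was Nfil3, a transcription factor gene induced by interleukins, lower by 0.76 in log2 terms (-0.76 ± 0.10, adjusted p = 0.00536), from 11.05 in WT to 10.29 in KO, in the arrays in which Il10 and Il4 read lower. Beside Il3 and Csf2, the 4 held Ccr4, a chemokine receptor gene of type 2 T cells (-0.755 ± 0.15, adjusted p = 0.0451), and Il6ra (-0.43 ± 0.09, adjusted p = 0.0475), whose calls ended in 14 and 16 of 20 alternatives, among them those without any 1 of the 6 stimulated arrays compared. The median difference over the 95 was -0.03, -0.02, 0.04 and 0.21 in Rheb KO unstimulated and stimulated and Rag KO unstimulated and stimulated, against 0.02, -0.01, 0.03 and -0.05 over all genes.

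Stimulation moved many more of them. In Rheb WT 15 of the 95 rose and 20 fell (36.8%, against 9.37% of all genes), in Rheb KO 17 rose and 17 fell (35.8%, against 9.75%), in Rag WT 6 rose and 1 fell (7.37%, against 1%) and in Rag KO 12 rose and none fell (12.6%, against 1.32%). Of 7 measured genes of other type 2 and Th2-linked cytokines, 2 (Il21 and Il31) rose in Rheb KO, and none was called in any other comparison. These calls ended in 3 of 20 and 7 of 19 alternatives. Among 20 transcription factor genes of the type 2 programme, Irf4, which acts with NFAT and AP-1 factors in T cells, was called in all 4 responses, at 0.88 ± 0.12 and 1.245 ± 0.12 log2 in Rheb WT and KO (adjusted p = 0.000379 and 2.03e-05) and at 2.70 ± 0.30 and 2.43 ± 0.30 in Rag WT and KO (adjusted p = 0.00191 and 0.00206). Nfil3 rose by 3.385 ± 0.41 in Rag KO (adjusted p = 0.00188), by 1.97 ± 0.41 in Rag WT (adjusted p = 0.041) and by 0.53 ± 0.10 in Rheb KO (adjusted p = 0.00321), and read 0.10 ± 0.10 in Rheb WT (adjusted p = 0.639). The Rag WT call ended in 7 of 18 alternatives. Among them were those without unstimulated WT array 2 (1.28), stimulated WT array 1 (1.40) or 2 (2.54) or either stimulated KO array (1.97 each). Rbpj, the nuclear effector of Notch, rose by 0.83, 1.007 and 2.06 in Rheb WT, Rheb KO and Rag KO. In the Rheb experiment the AP-1 gene Junb fell by 0.94 in WT and fell by 1.004 in KO, and Zfpm1, whose product FOG-1 binds GATA factors, fell by 0.94 and by 0.86. In Rag KO the Rbpj call ended in 4 of 18 alternatives, among them those without stimulated KO array 1 (1.97) or 2 (2.145).

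Among 16 regulators of Il10, 2 rose and 7 fell in each genotype of the Rheb experiment, where 9.37% (WT) and 9.75% (KO) of all genes were called. Egr2, a factor gene linked to Il10 in T cells, rose by 0.90 ± 0.12 and 0.94 ± 0.12 log2 in Rheb WT and KO (adjusted p = 0.000281 and 0.000162). Zfp36, whose product destabilises cytokine mRNAs, fell by 1.53 ± 0.10 and 1.51 ± 0.10 (adjusted p = 2.1e-06 and 1.25e-06), and the interleukin-6 receptor gene Il6ra by 1.13 and 1.40. Il10 itself was called in neither of these responses. In Rag WT 1 of the 16 rose (Egr2, 1.65) and 1 fell (Zfp36, -1.265), and in Rag KO 2 rose (Egr2, 1.93, and the MAP kinase phosphatase gene Dusp4, 2.02), against 1 and 1.32% of all genes called. In Rag WT the Egr2 call ended in 6 of 18 alternatives, among them those without unstimulated WT array 2 (1.05) or stimulated WT array 1 (1.74) or 2 (1.57). The Zfp36 call ended in 7 of 18, among them those without any 1 of the 4 WT arrays (-1.39 to -1.14). In Rag KO the Egr2 call ended in 5 of 18 alternatives, among them those without unstimulated KO array 1 (1.61) or stimulated KO array 1 (2.09) or 2 (1.77). The Dusp4 call ended in 4 of 18, among them those without stimulated KO array 1 (1.93) or 2 (2.12).

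Of 9 genes of the receptor chains and signalling of interleukins 4 and 13, 2 rose and 2 fell in Rheb WT, 1 rose and 1 fell in Rheb KO, 0 were called in Rag WT and 2 rose in Rag KO. Over all genes 9.37, 9.75, 1 and 1.32% were called in these responses, in the same order. Socs1, a feedback inhibitor of JAK kinases, rose by 0.53 ± 0.15 log2 in Rheb WT, 0.66 ± 0.15 in Rheb KO and 1.72 ± 0.29 in Rag KO (adjusted p = 0.0451, 0.0136 and 0.0109). In Rheb WT the Socs1 call ended in 11 of 20 alternatives. In Rheb KO it ended in 3 of 20, among them those without unstimulated KO array 1 (0.55) or 2 (0.64). In Rag KO it ended without stimulated KO array 1 (1.82) or 2 (1.63). Ptpn6, the gene of the phosphatase SHP-1, fell by 0.78 in each Rheb genotype (adjusted p = 0.0108 and 0.0101). Among 7 genes of the interleukin-10 receptor family and its signalling, Stat3 rose (0.44 and 0.79 in Rheb WT and KO) and Il22 fell (-0.75 and -0.68), and none was called in the Rag experiment. The Stat3 call in WT ended in 5 of 20 alternatives, among them those without unstimulated array 2 (0.38) or stimulated array 1 (0.40) or 2 (0.40). The Il22 call in KO ended without array 3 of the unstimulated (-0.58) or the stimulated state (-0.56).

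Of 7 measured factors of other helper fates, 2 rose and 2 fell in Rheb WT, 1 rose and 1 fell in Rheb KO, and 1 rose in each Rag genotype. Of 9 receptors of type 2 and tissue Tregs, 4 rose and 2 fell in Rheb WT, 3 rose and 2 fell in Rheb KO, and 2 rose in each Rag genotype. Over all genes 9.37, 9.75, 1 and 1.32% were called in Rheb WT, Rheb KO, Rag WT and Rag KO. Eomes, a T-box factor gene of cytotoxic cells, fell by 1.004 ± 0.19 log2 in Rheb WT (adjusted p = 0.00443) and read -0.63 in Rheb KO (adjusted p = 0.0563). Runx1 fell by 0.61 in Rheb WT and by 0.45 in Rheb KO (adjusted p = 0.00656 and 0.0354, the latter ending in 6 of 20 alternatives), and Runx3 rose by 0.43 in Rheb WT (adjusted p = 0.0279, ending in 7 of 20).

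Tbx21, which encodes the type 1 factor T-bet, rose by 0.99 ± 0.12 and 1.63 ± 0.12 log2 in Rheb WT and KO (adjusted p = 0.000161 and 3.74e-06) and by 2.48 ± 0.43 and 2.30 ± 0.43 in Rag WT and KO (adjusted p = 0.0155 and 0.0196). The costimulatory receptor gene Icos rose by 0.70 in Rheb WT and 0.82 in Rheb KO (adjusted p = 0.000409 and 0.000104) and Ccr4 by 0.83 in Rheb WT (adjusted p = 0.00291), while Klrg1 fell by 0.53 and by 0.64 (adjusted p = 0.0253 and 0.00845). The tumour necrosis factor receptor gene Tnfrsf9 rose by 1.22, 1.45, 1.60 and 2.07 in the same order, and the chemokine receptor gene Ccr8 by 0.43 in Rheb WT, 0.85 in Rheb KO, 1.86 in Rag WT and 2.26 in Rag KO. In Rag WT the calls of Tbx21, Tnfrsf9 and Ccr8 each ended in 4 of 18 alternatives. Among them were those without unstimulated array 2 (1.66, 1.14 and 1.36) or stimulated array 1 (2.02, 1.28 and 1.71) or 2 (2.95, 1.92 and 2.02). In Rag KO those of Tbx21 and Tnfrsf9 ended without stimulated array 1 (2.31 and 1.95) or 2 (2.29 and 2.19) and that of Ccr8 without stimulated array 1 (2.21). Ccr3, the eotaxin receptor gene, fell by 0.87 in Rheb WT and 1.62 in Rheb KO, from a level under the negative control median in WT. The WT call ended in 4 of 19 alternatives, among them those without unstimulated array 3 (-0.69) or stimulated array 2 (-0.72) or 3 (-0.86).

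**Figure D5:**
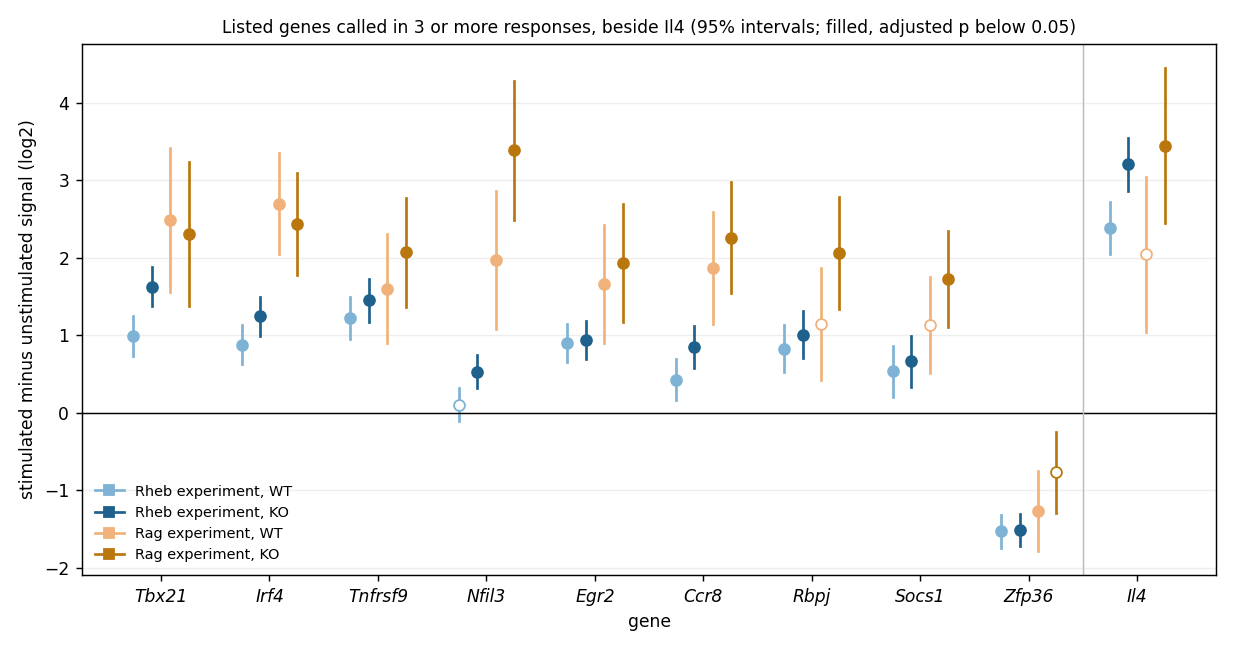
Stimulated minus unstimulated log2 signal (y axis) with 95% confidence intervals of the 9 listed genes called in 3 or more of the 4 responses, and of Il4 at the right (x axis); Rheb in blue, Rag in orange, the lighter shade WT, filled where the adjusted p was below 0.05. Of the 9 genes 8 rose where they were called and Zfp36 fell, and Irf4, Tbx21, Tnfrsf9, Egr2 and Ccr8 were called in all 4.

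The genes whose signal followed Il4 most closely over the 20 arrays, each experiment's mean taken off, were N4bp1 (correlation 0.957), the cytokine signalling inhibitor gene Socs2 (0.943) and the lysosomal membrane gene Lamp2 (0.937). Within the Rheb and the Rag experiment the correlations were 0.989 and 0.924 for N4bp1, 0.951 and 0.944 for Socs2 and 0.938 and 0.937 for Lamp2. Socs2 had group means of 9.76 and 8.85 in unstimulated Rheb WT and KO, 10.55 and 10.22 in stimulated Rheb WT and KO, 8.92 and 9.15 in unstimulated Rag WT and KO, and 9.61 and 10.35 in stimulated Rag WT and KO. Lamp2 had 11.16 and 11.17 in unstimulated Rheb WT and KO and 11.48 and 12.23 in stimulated Rag WT and KO. For Il10 the nearest genes were Mtor (0.914), which encodes the kinase of mTORC1, the T cell receptor chain gene Cd247 (0.883) and the vesicle coat gene Copz1 (0.877). Mtor had group means of 8.26 and 7.49 in unstimulated Rheb WT and KO, 7.91 and 7.69 in stimulated Rheb WT and KO, 7.84 and 7.86 in unstimulated Rag WT and KO, and 8.34 and 8.64 in stimulated Rag WT and KO, all under the 95th percentile of the negative controls. These genes were chosen for their likeness among 19505, the arrays share groups and experiments, and no p-value applies.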

How the data were processed

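Each sample's RNA was hybridised to 1 Clariom S array after amplification and biotin labelling. The deposited values are log2 gene-level signals, made by the authors with RMA in Affymetrix Expression Console 1.1, per the submitters' processing notes. RMA corrects background, normalizes arrays by quantiles and summarises probes; a joint normalization of both experiments is neither stated nor denied in the labels. The table held 28846 probe sets, 19572 with 1 gene, none with several and 5222 negative controls; 55 genes had several probe sets, and the one with the highest mean was used. All 19505 genes were tested, with no rescaling.

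Groups followed the titles. In each experiment limma 3.58.1 (R 4.3.3) fitted 1 mean per group to the 4 groups (lmFit, contrasts.fit, eBayes), with 1 estimate of spread per gene, two-sided tests and Benjamini-Hochberg adjustment over all genes at 0.05. Rag effects minus Rheb effects came from 1 fit of all 20 arrays. Errors are SE unless SD is named. Only 3 or 2 arrays per group limit the precision. The genes described, the lists and the tests were chosen with earlier results of these data known. From each list and comparison the called genes were eligible to be named, at most 4 with the largest change.

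Alternatives were a second quantile normalization, each array minus its median, leaving out the dimmest 40% of genes, a variance prior that is trended and robust, a fit of the compared groups alone or of all 20 arrays, a block for the replicate number, the mean of all probe sets of a gene, and each array left out. The 2 added after seeing the data left out both Rag arrays of lowest median or the Rag WT arrays numbered 2. The fit was tested on simulated data.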

Additional observations from a re-analysis of the deposited data

Results flagged for a closer look

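Il4 was flagged for a difference between the experiments, which is the property it was picked for. Every Rheb KO array lay below every WT array of its state and every Rag KO array above every WT array of its state. Over all genes, KO and WT arrays did not overlap for 14.7% (unstimulated) and 15.6% (stimulated) in the Rheb experiment. In the Rag experiment these shares were 28.4 and 44.3%. Each share is of a single comparison, not of genes with opposite directions in both experiments. For Il4 the Rag effect minus the Rheb effect was 2.72 log2 unstimulated and 3.3 log2 stimulated. The difference was not tested, because Il4 was picked for it. The unstimulated value rests on Rheb KO arrays above 30.1 to 35.8% of the negative controls and a Rag WT array above 34.1% of them, so its size is uncertain. Without unstimulated Rag WT array 2 the first value became 1.98, and leaving out both Rag arrays of lowest median gave 1.85.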

How the results depend on the processing

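In number of genes called among the 6 (5 where Il4 was not tested), results changed as follows. Unstimulated Rheb KO against WT went from 1 to 0 with all 20 arrays in the fit. Stimulated Rheb KO against WT went from 0 to 1 under the filter on dim genes and under the trended prior. The Rheb KO response went from 2 to 1 with a second quantile normalization, only the groups compared, all 20 arrays or the replicate block. The Rag WT response went from 0 to 1 with a second quantile normalization, median centring, the filter or the replicate block, and to 2 with only the groups compared or all 20 arrays. The Rag KO response went from 1 to 2 with median centring, the replicate block or without both Rag arrays of lowest median, to 3 under the filter and to 4 with all 20 arrays. Leaving out 1 array gave 0 to 1 in unstimulated Rheb KO against WT, 1 to 2 in the Rheb KO response, 0 to 1 in the Rag WT response, 1 to 3 in the Rag KO response and 0 to 1 in the unstimulated Rag minus Rheb effect. The Rheb WT response went from 2 to 3 under the filter (Maf). The other 5 comparisons kept their counts under every alternative run. The cause was not tested. No called difference of the 6 genes changed sign, but uncalled ones did, among them Il10 in unstimulated Rag KO against WT (0.50 to -0.53 without unstimulated WT array 2). Il5 was removed by the filter.

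Same-numbered arrays of different groups deviated together with a mean correlation of -0.0298 in the Rheb and 0.0275 in the Rag experiment. The numbers were not taken to pair the arrays. Because these means include pairs of WT with KO, and Rag pairs ranged from -0.428 to 0.231, they cannot settle pairing within a genotype. In Rag WT array 1 exceeded array 2 in Il4 by 1.47 in both states. The replicate block changed the 3 counts given above and no other; with it the Il4 response of Rag WT passed (adjusted p = 0.00928).

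Counts over all genes moved more in the Rag experiment: 22 unstimulated calls between KO and WT became 0 to 530 without 1 array, and 20 stimulated calls 2 to 109. Under other settings they ranged from 0 to 210 and from 0 to 274. The Rag WT response (195) ranged from 0 to 1930 and the Rag KO response (258) from 45 to 2146. In the Rheb experiment 99, 106, 1828 and 1901 calls ranged from 27 to 200, 13 to 214, 806 to 2286 and 920 to 2331. Signals of Il5 and of unstimulated Il4 near the negative controls limit what differences can be seen.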
